A study of Rattus norvegicus with 2 samples.

Results

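Contractile smooth muscle genes were examined in rat intracranial arterial tissue, as a list of 34 genes for the actin and myosin filaments, the control of contraction, the intermediate filaments, the adhesion plaques and the transcription factors that drive this set. The list was set by gene name, with earlier results of these data known. Each gene was found on the arrays through the RefSeq accession of its probes, and 32 of the 34 had a matched probe, of 15159 genes with one. Of these, 31 were well above background on both arrays, among 11902 genes with a difference between the arrays. The only probe of Pdlim3 was not clearly above background in either library. Synpo2 and Rock1, which had no matched probe, were not analysed here.

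Total RNA was measured on 2 one-colour arrays. One held RNA of an aneurysm lesion 3 weeks after induction, and the other held RNA of intracranial arterial walls without treatment. The sources used here do not give the strain, sex, age, way of induction, artery or any pooling of animals. With 1 array per group there is no replicate check and no test across samples, so each difference describes these 2 libraries, and the number of arrays limits the precision. In bulk tissue, fewer cells of a type and less RNA per cell cannot be told apart.

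Arterial smooth muscle contracts when calcium and calmodulin activate myosin light chain kinase, which phosphorylates the regulatory light chain so that smooth muscle myosin pulls on filaments of smooth muscle actin. Myosin phosphatase reverses this step, and the RhoA and ROCK pathway holds the phosphatase back. Serum response factor (SRF) with its partner myocardin binds CArG boxes, short sequences of CC, a run of A or T bases, and GG, in the promoters of many of these genes. In injured arteries, smooth muscle cells can leave the contractile state, with loss of these transcripts and gain of matrix and migration genes.

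Promoter bases with the form of a CArG box are shown here because Srf itself carries a pair of such boxes. Acta2, the smooth muscle actin gene that most often marks the contractile state, carries a pair of a wider form, defined below. A script searched the 250 bases before the annotated start in 29 RefSeq promoters of 27 of the genes (build GRCr8). Tagln, Myh11, Myl9, Lmod1, Myocd, Tns1 and Pdlim3 had no promoter entry and were not searched. The strict box, CC, 6 bases of A or T, and GG, has the same form on both strands. It was found in 2 of the 29 (6.90%), those of Srf and Fhl1, and in 501 of all 33469 promoters (1.5%). A box with at most 1 G or C among those 6 bases, a wider form that includes the strict one, was found in 3 of the 29 (10.3%), the same 2 and Acta2, and in 8.08% of all promoters. Capitals mark these boxes. A match describes letters only, and 26 of the 29 windows held none. The windows are chr1:241172504-241172753, minus strand, for Acta2, chr9:21923826-21924075, plus strand, for Srf, and chrX:139638246-139638495, plus strand, for Fhl1.
Acta2: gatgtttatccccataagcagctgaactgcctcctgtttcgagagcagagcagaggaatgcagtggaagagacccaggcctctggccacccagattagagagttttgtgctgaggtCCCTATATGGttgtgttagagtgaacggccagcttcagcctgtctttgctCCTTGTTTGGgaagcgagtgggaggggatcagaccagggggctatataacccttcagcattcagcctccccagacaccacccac
Srf: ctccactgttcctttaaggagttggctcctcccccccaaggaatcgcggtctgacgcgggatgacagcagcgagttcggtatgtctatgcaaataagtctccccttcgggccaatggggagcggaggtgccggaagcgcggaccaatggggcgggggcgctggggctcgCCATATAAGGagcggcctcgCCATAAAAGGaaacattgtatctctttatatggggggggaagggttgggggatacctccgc
Fhl1: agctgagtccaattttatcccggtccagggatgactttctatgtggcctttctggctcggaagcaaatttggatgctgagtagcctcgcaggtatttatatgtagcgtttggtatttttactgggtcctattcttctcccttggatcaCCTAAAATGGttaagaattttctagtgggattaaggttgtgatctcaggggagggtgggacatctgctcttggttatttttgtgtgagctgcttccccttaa
In Acta2 the boxes CCCTATATGG and CCTTGTTTGG begin 134 and 84 bases before the start. In Srf the boxes CCATATAAGG and CCATAAAAGG begin 81 and 61 bases before it, and in Fhl1 the box CCTAAAATGG begins 102 bases before it.

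Signals below are log2 of the processed spot intensity relative to the 75th percentile of the same array, so 0 is that percentile. Differences are aneurysm minus control on this log2 scale. The value after ± is the spot error, which is the error of the difference computed from repeat spots within an array and holds no animal-to-animal variation. A signal depends on its probe, so signals are compared between arrays for 1 probe and not between genes. A gene with several probes is given by its brightest, with the others beside it.

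As a set, the contractile genes lay close to the centre of all genes, slightly on the higher side in the aneurysm. Their median difference was 0.087 log2 units, beside 0.0010 over all genes, and their quartiles were -0.046 and 0.21, beside -0.21 and 0.19 over all genes. Of the 31 genes, 20 were higher in the aneurysm (64.5%) and 11 lower, where 50.2% of all genes were higher. The set's median stood 0.086 above that of all genes as reported, 0.17 with normexp, where 27 of the 31 genes lay above the median of all genes in place of 20, and 0.14 with no filter on dim probes. None of the 31 differed by 2-fold, where 0.882% of all genes were at least 2-fold higher and 3.91% at least 2-fold lower. Actg2, Cnn1, Des, Tns1 and Lmod1 were higher by at least 0.322 log2 units, a share of 16.1% that is near the 13.8% of all genes. On the lower side, 0 of the 31 reached that size, where 17.0% of all genes did. Differences of at least 2 spot errors were found in 13 genes on the higher side (41.9%) and 2 on the lower (6.45%), beside 21.0% and 21.8% of all genes. The median spot error was 0.056 for these genes and 0.094 over all genes, so smaller differences pass this rule among them. Tpm1, Mylk and Synm, counted as higher, and Vcl, counted as lower, each had another probe of the opposite sign.

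**Figure D1:**
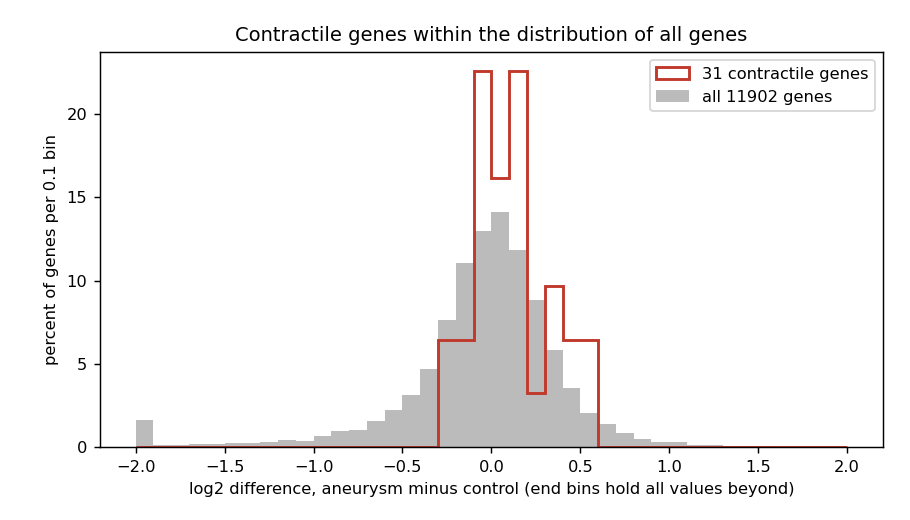
Percent of genes in each bin of 0.1 of the log2 difference (x axis, aneurysm minus control), for the 31 contractile genes (red outline) and all 11902 genes (grey bars), with 1 array per group. The contractile genes lie between -0.28 and 0.52, and the end bins, which hold all values beyond them, contain none of them.

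Of the actin genes, smooth muscle alpha actin was level between the libraries, while gamma smooth muscle actin had the highest difference of the set. Acta2, the main actin of arterial smooth muscle, was at 3.45 in the aneurysm and 3.46 in the control, a difference of -0.0081 ± 0.052. Its spots overlapped between the arrays, at 3.40 and 3.51 in the aneurysm against 3.46 and 3.47 in the control, and its sign changed with scaling, from -0.058 with the percentile taken over probes above background on both arrays to 0.30 with spike-in scaling. Actg2, the gamma actin known from visceral and some vascular smooth muscle, was at 5.42 in the aneurysm and 4.91 in the control by its brightest probe, which has 1 spot per array (0.52 ± 0.074, 1.43-fold). The other Actg2 probe was at 5.20 in the aneurysm and 4.70 in the control (0.50 ± 0.052), and its spots, at 5.14 and 5.26 in the aneurysm against 4.65 and 4.76 in the control, did not overlap. The probes of Actg2 thus gave nearly the same difference. Actins are close relatives, and whether a probe of one also binds transcripts of another was not tested.

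Of the genes for proteins that sit on the thin filament, 4 were higher by every probe measured. Cnn1, which encodes calponin, an inhibitor of the actin-activated myosin ATPase, was at -0.019 in the aneurysm and -0.53 in the control (0.51 ± 0.085, 1.42-fold). Its spots were at -0.093 and 0.055 in the aneurysm against -0.57 and -0.48 in the control, without overlap. Lmod1, the gene of a leiomodin that starts new actin filaments in smooth muscle, was at -1.41 in the aneurysm and -1.78 in the control (0.37 ± 0.11, 1.29-fold), and its second probe differed by 0.23 ± 0.14. Tagln, the gene of the actin binding protein SM22 alpha, was at 5.40 in the aneurysm and 5.22 in the control (0.18 ± 0.052), with spots at 5.39 and 5.41 in the aneurysm against 5.16 and 5.27 in the control. Tpm2, a tropomyosin gene, was at 4.76 in the aneurysm and 4.63 in the control (0.13 ± 0.052). By their brightest probe these 4 genes were higher in the aneurysm by more than 2 spot errors, with sizes from the 0.13 of Tpm2 to the 0.51 of Cnn1.

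For the other 3 thin filament genes the probes went different ways. Tpm1, a tropomyosin gene whose transcripts are spliced into many forms, was at 3.82 in the aneurysm and 3.64 in the control by its brighter probe (0.18 ± 0.052). Its other probe, annotated to another RefSeq transcript, was at 2.72 in the aneurysm and 2.94 in the control (-0.22 ± 0.056). The spots of the first were at 3.74 and 3.90 in the aneurysm against 3.57 and 3.70 in the control, and those of the second at 2.69 and 2.75 in the aneurysm against 2.91 and 2.97 in the control, so both pairs were apart, in opposite directions. Cald1, the gene of caldesmon, which restrains actomyosin, was at 2.22 in the aneurysm and 2.28 in the control (-0.062 ± 0.056) and differed by 0.12 ± 0.063 at its dimmer probe. Smtn, which encodes smoothelin of fully contractile cells, was at 3.22 in the aneurysm and 3.31 in the control by a probe with 1 spot per array (-0.089 ± 0.074), and its second probe differed by 0.085 ± 0.063. No single direction can be given to Tpm1, Cald1 or Smtn from these values.

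**Figure D2:**
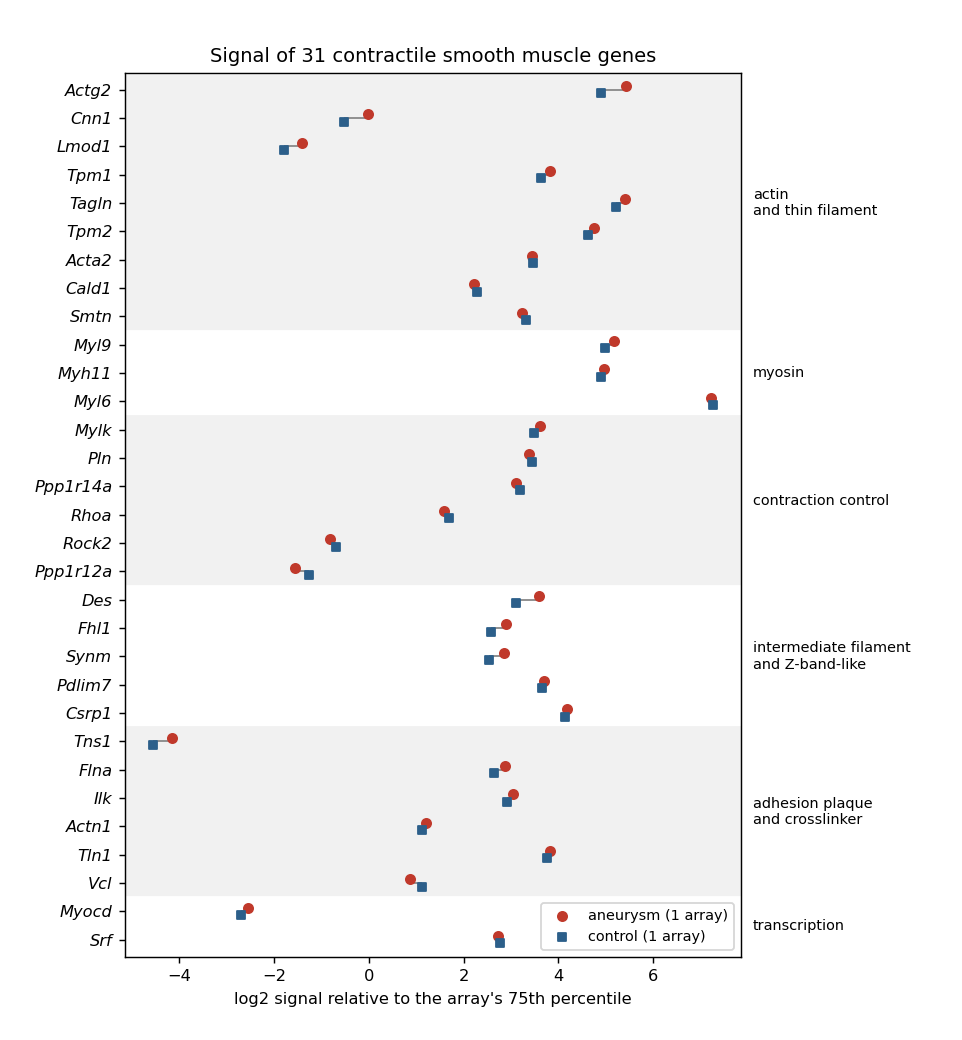
Log2 signal of the 31 contractile genes (x axis, relative to the 75th percentile of each array) in the aneurysm (red circles) and the control (blue squares), 1 array each, grouped by role. Most pairs lie nearly in line, and Actg2, Cnn1, Des and Tns1 show the widest gaps, each with the aneurysm to the right. Positions of different genes are not comparable.

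Of the 3 myosin genes, only Myl9 differed by at least 2 spot errors. Myh11, the smooth muscle myosin heavy chain gene, was at 4.97 in the aneurysm and 4.89 in the control (0.081 ± 0.052), and its second probe was at 2.70 in the aneurysm and 2.59 in the control (0.11 ± 0.056). The regulatory light chain gene Myl9 was at 5.17 in the aneurysm and 4.98 in the control (0.18 ± 0.052), with spots at 5.14 and 5.20 in the aneurysm against 4.94 and 5.02 in the control. Myl6, the gene of an essential light chain that many cell types share, was at 7.22 in the aneurysm and 7.26 in the control (-0.040 ± 0.052), and its spots overlapped.

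Of the 6 measured genes that control contraction, 5 were lower and 1 higher, where 50.2% of all genes were higher. The median of the 6 was -0.10, and among the 5 only Ppp1r12a was lower by at least 2 spot errors. The lowest difference of the whole set was that of Ppp1r12a, which encodes the targeting subunit of myosin phosphatase, at -1.55 in the aneurysm and -1.27 in the control (-0.28 ± 0.089, 0.822-fold). Its spots lay at -1.63 and -1.47 in the aneurysm against -1.33 and -1.21 in the control, without overlap. Rhoa, the gene of the small GTPase that sets calcium sensitivity, was at 1.59 in the aneurysm and 1.70 in the control (-0.11 ± 0.058). Rock2, which encodes its effector kinase, was at -0.81 in the aneurysm and -0.69 in the control (-0.12 ± 0.087). The spots of Rhoa and Rock2 overlapped between the arrays. The phosphatase inhibitor gene Ppp1r14a (CPI-17) was at 3.10 in the aneurysm and 3.19 in the control (-0.090 ± 0.054). Pln, the gene of phospholamban, which restrains the calcium store pump, was at 3.39 in the aneurysm and 3.43 in the control (-0.045 ± 0.052). Its spots overlapped as well. The exception in sign was Mylk, the myosin light chain kinase gene, at 3.60 in the aneurysm and 3.50 in the control by its brighter probe (0.11 ± 0.052), while its dimmer probe differed by -0.12 ± 0.063. With spike-in scaling all 6 genes of this group were higher and their median was 0.20, while the median of all genes moved up by 0.30, so the lower side here is relative to the other genes on the array.

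All 5 measured genes of the intermediate filaments and of structures like Z-bands were higher in the aneurysm, where 50.2% of all genes were. The median of the 5 was 0.31. That median was 0.20 with the mean over probes, and 0.18 with no filter on dim probes, where Pdlim3 enters. Des, which encodes desmin, the muscle intermediate filament protein, was at 3.60 in the aneurysm and 3.11 in the control (0.49 ± 0.055, 1.40-fold), with spots at 3.56 and 3.63 in the aneurysm against 3.10 and 3.12 in the control. Synm, whose product synemin joins desmin filaments, was at 2.85 in the aneurysm and 2.53 in the control (0.31 ± 0.056, 1.24-fold), but its dim second probe differed by -0.13 ± 0.19. Fhl1, a LIM protein gene of muscle, was measured by 8 spots in the aneurysm and 10 in the control, which lay at 2.82 to 2.95 in the aneurysm against 2.45 to 2.65 in the control, without overlap (0.32 ± 0.027). Its other probe, of 1 spot per array, differed by 0.087 ± 0.089. Fhl1 at 0.319 and Synm at 0.313 thus lay just under the size of 0.322, and Lmod1 at 0.371 just over it. Csrp1, another LIM protein gene, was at 4.19 in the aneurysm and 4.15 in the control (0.047 ± 0.052), and differed by -0.0027 when the percentile was taken over probes above background on both arrays. Pdlim7, which encodes the PDZ and LIM protein enigma, was at 3.71 in the aneurysm and 3.65 in the control (0.054 ± 0.052), and its dimmer probe, with 1 spot per array, differed by 0.44 ± 0.19.

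Of the adhesion plaque genes, 5 of 6 were higher by their brightest probe, where 50.2% of all genes were. The median of the 6 was 0.10. Flna, the gene of the actin crosslinker filamin A, was at 2.88 in the aneurysm and 2.65 in the control (0.24 ± 0.056), with spots at 2.87 and 2.90 in the aneurysm against 2.62 and 2.67 in the control. Ilk, the integrin-linked kinase gene, was at 3.04 in the aneurysm and 2.92 in the control (0.12 ± 0.056). Actn1, an alpha actinin gene, was at 1.21 in the aneurysm and 1.12 in the control (0.087 ± 0.058), and Tln1, which encodes the integrin activator talin, was at 3.82 in the aneurysm and 3.75 in the control (0.065 ± 0.052). Of these 4, the spots of Actn1 overlapped between the arrays and those of the other 3 did not. Tns1, a tensin gene, rested on 1 dim spot per array, at -4.15 in the aneurysm and -4.56 in the control. Its difference of 0.41 was smaller than its spot error of 0.53 and was -0.030 with normexp background correction.

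Vcl, which encodes vinculin, the link between actin and the adhesion plaque, gave opposite answers by its probes. The brighter was at 0.87 in the aneurysm and 1.13 in the control (-0.26 ± 0.060), with spots at 0.80 and 0.94 in the aneurysm against 1.05 and 1.20 in the control. The other has 10 spots on each array, which lay at 0.44 to 0.68 in the aneurysm against 0.022 to 0.23 in the control (0.45 ± 0.030). Both are annotated to the same RefSeq transcript, and neither set of spots overlapped between the arrays. The gap between the probes is far wider than either spot error, so no direction can be given for Vcl.

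Across the set, 43 probes were matched, 42 of them above background in both libraries. Of those 42, 28 were higher in the aneurysm and 14 lower, where 50.2% of all genes, each by 1 probe, were higher. The share over all probes was not counted, and some genes enter the 42 by more than 1 probe. Of 11 genes with more than 1 probe, 6 had probes that differed in sign, which were Smtn, Mylk, Tpm1, Cald1, Vcl and Synm. In the other 5, Myh11, Lmod1, Actg2, Pdlim7 and Fhl1, all probes were higher.

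**Figure D3:**
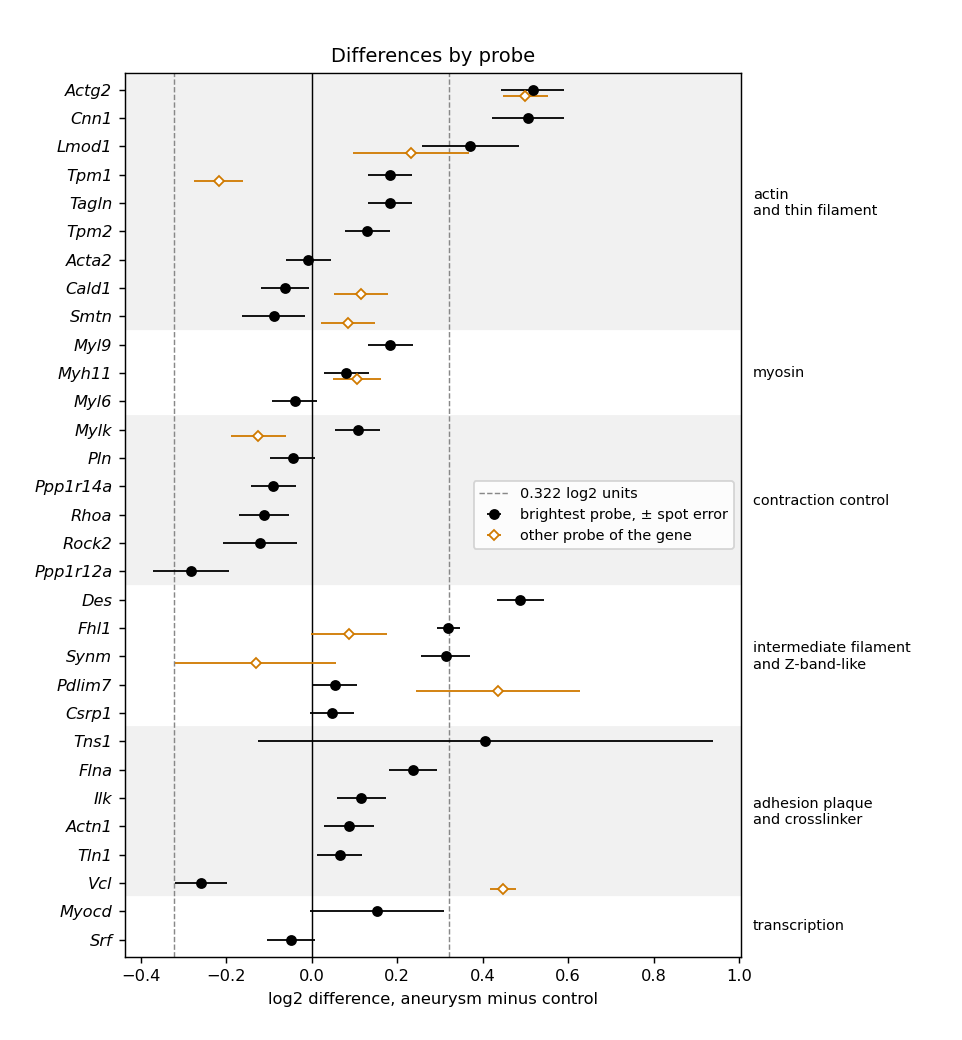
Log2 difference, aneurysm minus control (x axis), of the brightest probe of each gene (black circles) and of its other probes (open orange diamonds), with bars for the spot error, grouped by role. Dashed lines mark 0.322 log2 units either way. Des, Actg2 and Cnn1 lie to the right of the upper line, and the probes of Vcl and Tpm1 fall on opposite sides of 0.

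The transcription factors of the set were level. Srf was at 2.72 in the aneurysm and 2.77 in the control (-0.048 ± 0.056), and its spots overlapped. Myocd, the gene of myocardin, was dim, at -2.56 in the aneurysm and -2.71 in the control (0.15 ± 0.16), and differed by -0.025 with normexp. Among their cofactors and other smooth muscle transcription factors, 10 of the 16 genes above background in both libraries were higher. The median of the 16 was 0.16, and 50.2% of all genes were higher. With Hes1, given below as a bound, the median was 0.18. With normexp, where Hes1 has no value, the median was 0.042 and 9 of 16 genes were higher. Fhl2, which encodes an SRF-binding LIM cofactor, was at -0.080 in the aneurysm and -1.07 in the control (0.99 ± 0.085, 1.99-fold). Klf4, the gene of a factor known to repress contractile genes, was at 1.10 in the aneurysm and 0.48 in the control (0.62 ± 0.062). The lowest were Tcf12 (-0.40 ± 0.065) and Prrx1 (-0.34 ± 0.057). Hes1, a Notch target gene clearly above background in the aneurysm library only, was dim there, at -5.37. Its bound, set against the lowest control signal that is above background, was 1.04 ± 0.51 (2.05-fold). That bound was 0.99 when the percentile was taken over probes above background on both arrays. The cofactor genes Mrtfa and Mrtfb had no matched probe and were not analysed here.

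Among other genes of the same machinery, the actomyosin list centred slightly above 0 and the adhesion list higher. Of 16 other actomyosin and thin filament genes, 12 were higher, where 50.2% of all genes were. Their median was 0.11. Highest were Acta1, the skeletal actin gene (0.59 ± 0.26, and 0.13 with normexp), and the transgelin gene Tagln2 (0.47 ± 0.058). Lowest were the cardiac actin gene Actc1 (-0.44 ± 0.070) and the leiomodin gene Lmod2 (-0.39 ± 0.27). Of 31 other adhesion and dense plaque genes, 22 were higher, where 50.2% of all genes were. Their median was 0.21, just above the upper quartile of 0.19 over all genes. On the higher side 8 reached 0.322, where 13.8% of all genes did, and on the lower side none, where 17.0% did. At the top stood the integrin beta 1 gene Itgb1 (0.61 ± 0.057) and Parva, a partner of integrin-linked kinase (0.55 ± 0.068), and at the bottom Lpp (-0.24 ± 0.39) and Vasp (-0.17 ± 0.16), both of which were above 0 with spike-in scaling.

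Of 36 other contraction regulators above background in both libraries, 18 were higher and 18 lower, where 50.2% of all genes were higher. Their median was 0.0038, and a median this near 0 changed sign with the processing, such as -0.051 with normexp. The highest were the kinase gene Dapk3 (0.45 ± 0.085) and the phosphatase catalytic subunit gene Ppp1cb (0.34 ± 0.058). On the higher side only these 2 reached 0.322, where 13.8% of all genes did. On the lower side 7 did, where 17.0% of all genes did, led by Ppp1r12b, which encodes a second phosphatase targeting subunit, at -3.76 in the aneurysm and -3.09 in the control (-0.67 ± 0.19), and by the G protein regulator gene Rgs4, at 1.01 in the aneurysm and 1.56 in the control (-0.55 ± 0.026).

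Genes linked with the synthetic or modulated state of smooth muscle had a higher median than the contractile genes. Of 21 measured, 19 were higher and 13 by at least 0.322, where 50.2% and 13.8% of all genes were. The list had a median of 0.41, which was 0.44 with normexp and 0.71 with spike-in scaling. Spp1, the osteopontin gene, was at 0.084 in the aneurysm and -1.21 in the control (1.29 ± 0.038, 2.45-fold). Ccn2, the gene of a connective tissue growth factor, was at 2.48 in the aneurysm and 1.38 in the control (1.10 ± 0.026, 2.14-fold). The lowest were Tnc (-0.24 ± 0.20) and Thbs1 (-0.19 ± 0.39), which encode matrix glycoproteins and were above 0 with spike-in scaling. Lum, Dcn and Pdgfra of this list also stand in the fibroblast list, and Klf4, Vim and Myh10 in the lists above. Macrophages too express Spp1, and the cells behind these signals were not tested.

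**Figure D4:**
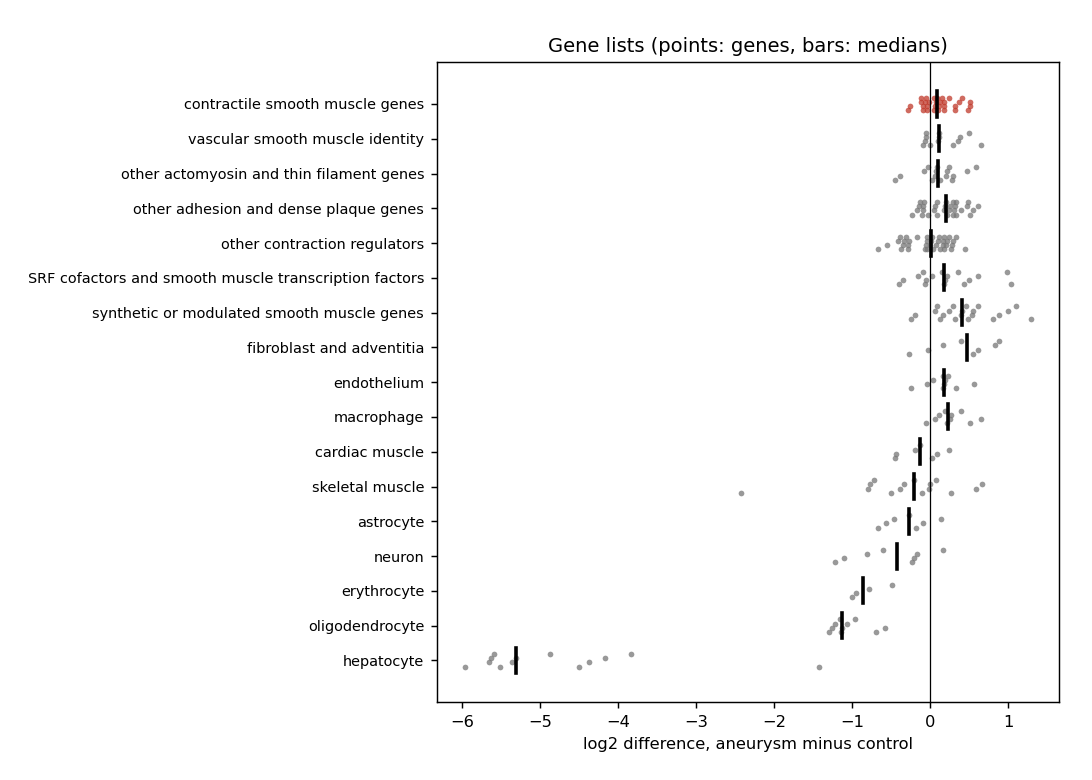
Log2 difference, aneurysm minus control (x axis), of each measured gene (points) of the contractile set (red) and of 16 other gene lists (grey), with the median of each list as a black bar. The contractile genes centre on 0.087, the synthetic or modulated list on 0.41 and the hepatocyte list, with 4 genes at bounds, on -5.31.

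Smooth muscle markers were looked up beside the tissue label. The 6 genes most used for this (Acta2, Myh11, Tagln, Cnn1, Smtn and Lmod1) were above background in both libraries. In a vascular smooth muscle identity list 13 of 14 genes were measured, the other, Npnt, having no matched probe. Of all 15159 genes with a matched probe, 11902 had a difference, so detection of these markers says little about the tissue. In that list Olfr78 (0.65 ± 0.11) and Sost (0.50 ± 0.56) were highest, and Notch3 (-0.089 ± 0.14) and Pdgfrb (-0.066 ± 0.056) lowest. Its median was 0.11, and -0.014 with normexp, where Sost was -0.10. Notch3 and Pdgfrb were above 0 with spike-in scaling.

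Markers of other tissues moved with the groups, and their part in the differences above was not tested. Of 15 measured skeletal muscle genes, 11 were lower, where 50.2% of all genes were higher. Their median was -0.21, with a range of -2.42 to 0.67. The low end of the range was Pvalb alone, and the next lowest was Tnnc2 at -0.80. Ckm was at -0.77, Tnnt3 at -0.34 and Tnnt1 at -0.0053, the last of which was 0.30 with spike-in scaling. The 4 higher genes were Myl1 (0.67), Acta1 (0.59), Myh7 (0.27) and Casq1 (0.074). Of 7 cardiac muscle genes, 4 were lower, with a median of -0.13, with Myh6 at 0.083 and Myl7 at -0.13, and Nppa was not clearly above background in either library. With spike-in scaling both muscle medians were above 0, at 0.093 and 0.17. The cardiac median was also above 0 with quantile normalization (0.0057) and with no filter on dim probes (0.055).

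The lists of hepatocyte, oligodendrocyte and erythrocyte markers had the lowest medians. Over all genes, 50.2% were higher in the aneurysm. All 9 hepatocyte genes above background in both libraries were lower in the aneurysm (-5.65 to -1.42, median -4.50), including Alb (-5.52), Ambp (-5.65) and Fgb (-5.59). A further 4, Fga, Fgg, Hrg and Gc, were above background in the control only and have bounds. With these the median was -5.31, and -2.92 with normexp. All 10 oligodendrocyte genes were lower as well (-1.30 to -0.58, median -1.13), with Mobp at -1.30, Opalin at -1.26 and Mog at -1.14. So were all 4 measured erythrocyte genes (-0.999 to -0.48, median -0.86), with Hba-a1 at -0.95 and Hbb at -0.78. Of 8 neuron genes 7 were lower, with Tubb3 at -1.22, Snap25 at -0.17 and Syt1 at -0.23. With spike-in scaling 4 of the 8 were higher, Snap25 was 0.13, Syt1 was 0.076 and the median was -0.11, against -0.42 as reported. Of 7 astrocyte genes 6 were lower, with Gfap at -0.27, Aqp4 at -0.18 and Aldh1l1 at -0.57, though their median was 0.031 with spike-in scaling.

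Markers of other cells of the arterial wall were mostly higher in the aneurysm, where 50.2% of all genes were higher. Fibroblast genes were higher in 6 of 8 (median 0.48), with Lum at 0.88, Dcn at 0.55 and Pdgfra at 0.40. Endothelial genes were higher in 8 of 10 (median 0.17), with Pecam1 at 0.33 and Cdh5 at -0.24. Macrophage genes were higher in 9 of 10 (median 0.23), with Cd68 at -0.048, Cd163 at 0.65 and C1qa at 0.20. With normexp, 36.9% of all genes were higher. The counts were then 6 of 8 fibroblast genes (median 0.48), 6 of 10 endothelial genes (0.096) and 8 of 10 macrophage genes (0.21).

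**Figure D5:**
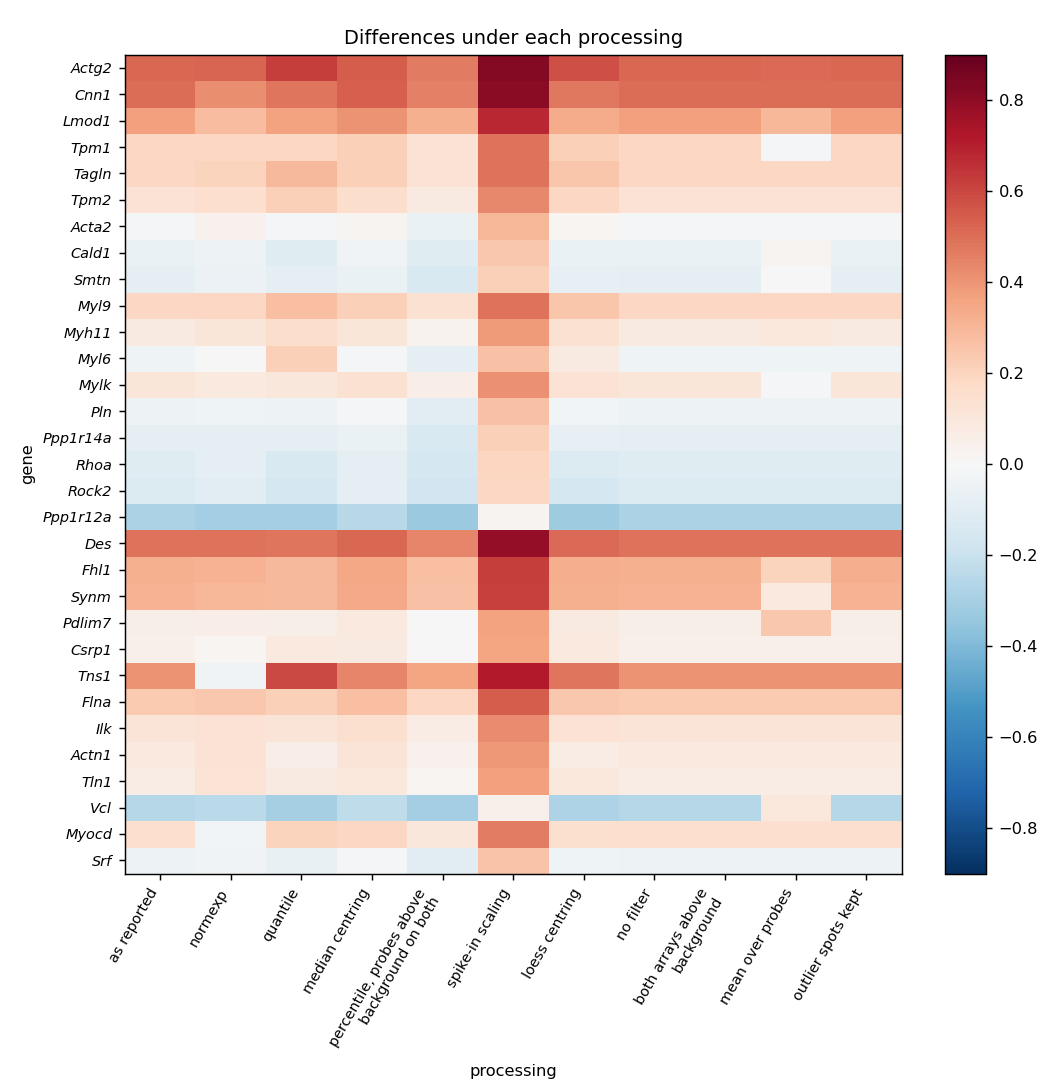
Log2 difference, aneurysm minus control (colour, red higher and blue lower in the aneurysm), of each contractile gene (rows) as reported and under 10 other ways of processing (columns). Actg2, Cnn1, Lmod1 and Des are red in every column, Tns1 loses its colour with normexp, and spike-in scaling moves all genes up together.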

How the data were processed

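Each array's scanner file was deposited by the authors and came from Feature Extraction 10.10.1.1, with a probe design on rn4, per the file headers. Its processed spot intensity, on a linear scale, and its flags were used as deposited. Both arrays share 1 slide and 1 scan.

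Of 62976 spots, 58717 were not controls, and 76.4% of these in the aneurysm and 74.7% in the control were well above background. No spot was saturated. The log2 intensity was scaled to the 75th percentile of each array (801 in the aneurysm and 621 in the control), outlier spots (573 in the aneurysm and 484 in the control) were left out, and spots of a probe were averaged. Probe accessions were matched without version to RefSeq names, and 18006 of 30367 probes matched 1 gene, the rest none. A gene was taken from its brightest probe above background on either array. A gene seen on 1 array got a bound, and 81 with none were left out. Spot errors pool the SD of repeat spots over 20 bins of signal. Promoters are from RefSeq.

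Genes and lists were chosen with earlier results of these data known. The text names all 34 genes, the 2 highest and 2 lowest genes above background on both arrays in each of 6 related lists, and the first 3 markers of each cell type list (Vwf and Hba-a2 had no matched probe). Hes1, Mrtfa, Mrtfb, Npnt, Fga, Fgg, Hrg, Gc, Myl1, Myh7, Casq1, Pvalb and Tnnc2 were named outside this rule, after their values were seen. So were the genes shared between lists. Alternatives covered background correction, scaling, the filter, the probe rule, outlier spots and the size counted. The code (Python 3.11.15, with limma 3.58.1 for normexp at an offset of 50 on the median signals) was tested on simulated data.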

Additional observations from a re-analysis of the deposited data

How the results depend on the processing

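The median difference of the 31 genes was 0.39 with spike-in scaling, where all 31 were higher, 20 of them by at least 0.322 log2 units. With spike-in scaling 47.7% of all genes were higher by that size. That scaling moved the median of all genes by 0.30 and left the 31 genes 0.087 above it, as a shift of all genes must. Normexp moved the median of all genes by -0.085 and put the 31 genes 0.17 above it. The count higher by at least 0.322 was 3 with normexp, 3 without genes of 1 spot per array (an alternative chosen after seeing the data), and 0 at 1.5-fold. With normexp 4.73% of all genes were higher by at least 0.322. The count lower by that size was 1, Ppp1r12a, when the percentile was taken over probes above background on both arrays, which lowered the median of all genes by 0.051. Tns1 was -0.030 with normexp. The share of all genes higher was 36.9% with normexp and 82.2% with spike-in scaling. With the mean over probes, 4 genes changed sign (Mylk, Tpm1, Cald1 and Vcl). Apart from what each alternative's construction shows, the cause was not tested. Under the alternatives of background, scaling, filter, probe rule and outlier spots other than spike-in scaling, the median lay between 0.037 and 0.13 and 19 to 22 genes were higher. No paired analysis was possible because each group has 1 array. Signal over background limits Tns1 and Myocd most, and these arrays do not measure variation between animals.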
